A study of Mus musculus with 36 samples.

Results

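Zbtb16 was measured by 3 of the 45101 probe sets of an Affymetrix mouse whole-genome array, 1439163_at, 1419874_x_at and 1427638_at, which are all the probe sets that the array's annotation names Zbtb16. The gene itself was chosen by its change with morphine on these same arrays, so that its morphine values are a description and carry no p-value. The 36 arrays held RNA from the striatum of adult male mice, 8 to 10 weeks old, in 12 groups of 3 arrays. The inbred strains were SWR/J, DBA/2J, C57BL/6J and 129P3/J. RNA from 3 mice was pooled for each array, 9 mice in a group, and the spread given is that between pools. Acute morphine groups received saline injections on the schedule of the chronic groups for 4 days and a single subcutaneous dose of 20 mg/kg on day 5. In chronic morphine groups the dose, given 3 times daily, was 10 mg/kg at first, 20 mg/kg on day 2 and 40 mg/kg for the next 2 days, before 1 further 40 mg/kg injection on day 5. Saline groups, the controls, received saline throughout, and the mice were killed 4 hours after the final injection.

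Zbtb16 encodes PLZF, a zinc finger protein with an amino-terminal BTB domain. PLZF binds DNA through its zinc fingers and represses transcription by recruiting corepressors and histone deacetylases through the BTB domain. It is known for its part in stem cell maintenance, limb patterning and innate-like T cells, and its gene is a well-known target of the activated glucocorticoid receptor in many cell types. The comparisons set the probe sets against each other over the 12 groups of strain and treatment. On Affymetrix arrays the suffix _x_at marks a probe set with probes that may also match other transcripts, and _at marks one meant for a single transcript.

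All 3 probe sets passed the detection filter, an intensity above 100 on at least 9 arrays, which 27178 probe sets passed. Intensities here are linear model-based values that had already been normalized between arrays, and differences are on the log2 scale. Averaged over the 36 arrays, the log2 signal was 9.86 for 1439163_at, 9.19 for 1419874_x_at and 6.82 for 1427638_at, higher than 87.6%, 77.2% and 12.7% of the detected probe sets. Probe sets bind with different strength, so these levels do not rank transcripts. 1439163_at and 1419874_x_at exceeded 100 on all 36 arrays, and 1427638_at on 26 of them, with a range of 64.1 to 163.8, so that it lay near the limit of detection. It passed the filter mostly through its morphine arrays. Its acute arrays were all at 100.8 or above, while the median of its saline arrays was 89.14, below the limit. Array medians were 119 to 133.

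With 1419874_x_at, every morphine array was brighter than every saline array. In C57BL/6J mice the intensities were 830.7, 835.1 and 828.6 with acute morphine, 642.8, 688.7 and 600.2 with chronic morphine, and 239.6, 159.2 and 390.2 with saline. In 129P3/J mice they were 926.1, 930.1 and 920.6 with acute morphine, 850.8, 921.9 and 993.8 with chronic morphine, and 204.7, 429.4 and 504.4 with saline. In both strains the acute arrays lay within a few units of each other, while the lowest and highest saline arrays differed by more than the lower value itself. In DBA/2J mice the intensities were 825.3, 830.2 and 742.3 with acute morphine, 755.3, 777.3 and 791.5 with chronic morphine, and 160.1, 399.9 and 457.7 with saline. In SWR/J mice they were 731.7, 994.9 and 731.1 with acute morphine, 703.5, 784.9 and 743.7 with chronic morphine, and 289.1, 396.8 and 389.0 with saline. The lowest of the 24 morphine arrays, at 600.2, stood above the highest of the 12 saline arrays, at 504.4. The groups overlapped in none of the 4 strains. How many other detected probe sets separated in this way was not counted, and the gene was chosen by this contrast. By limma at an adjusted p under 0.05, acute morphine raised 2.59% and lowered 2.1% of the detected probe sets, and chronic morphine raised 1.36% and lowered 3.38%, from which nothing is read for Zbtb16.

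Relative to saline, 1419874_x_at differed by 1.43 (SE 0.147, n = 12 arrays each) after acute morphine, a 2.69-fold change, and by 1.29 (SE 0.147) after chronic morphine, a 2.45-fold change. The acute difference was 1.76 in C57BL/6J, 1.19 in SWR/J, 1.37 in DBA/2J and 1.39 in 129P3/J, each with an SE of 0.294. The chronic differences ran from 1.07 in SWR/J to 1.39 in C57BL/6J. The saline arrays of lowest signal weighed on these sizes. Without DBA/2J saline replicate 1 the DBA/2J differences were 0.90 for acute and 0.86 for chronic morphine, and without 129P3/J saline replicate 1 the 129P3/J differences were 0.99 and 0.98.

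**Figure D1:**
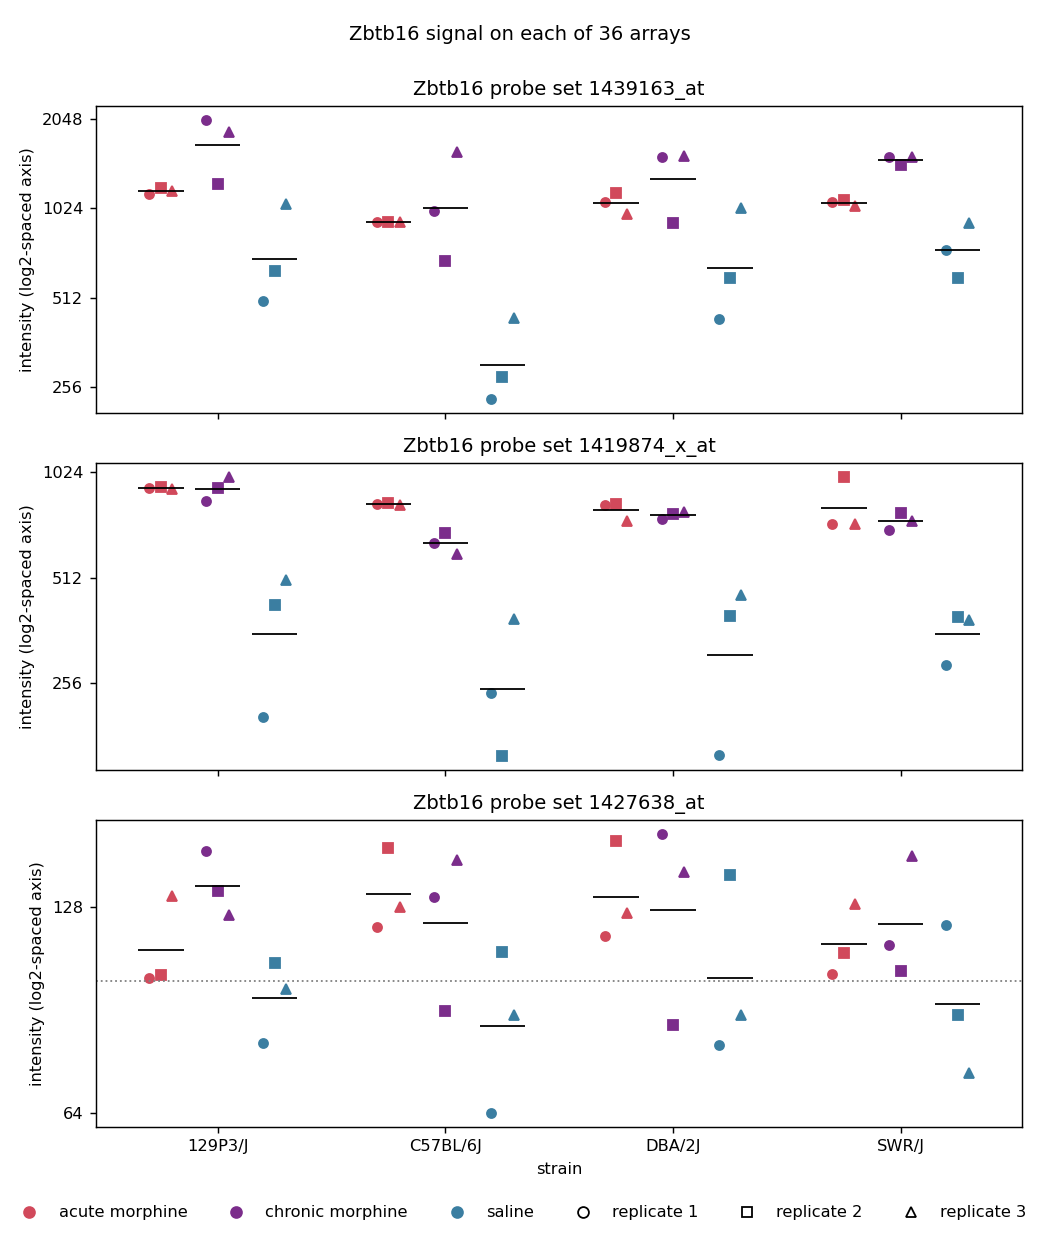
Intensity of the 3 Zbtb16 probe sets on each of the 36 arrays, on axes spaced by log2, by strain and treatment (acute morphine, chronic morphine, saline). Symbols mark the replicate number, black bars the mean of the 3 log2 values, and the dotted line in the lowest panel the detection limit of 100. For 1419874_x_at the 24 morphine arrays lie between 600.2 and 994.9, above the 12 saline arrays at 159.2 to 504.4.

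The brightest probe set, 1439163_at, showed a larger signal with morphine as well, with a saline level in C57BL/6J below that of the other strains. In C57BL/6J mice the intensities were 919.3, 921.5 and 920.7 with acute morphine, 999.4, 680.6 and 1581 with chronic morphine, and 234.9, 276.7 and 438.5 with saline. In 129P3/J mice they were 1148, 1201 and 1172 with acute morphine, 2033, 1234 and 1845 with chronic morphine, and 499.0, 632.2 and 1061 with saline. Neither morphine group overlapped with saline in these 2 strains, and the chronic arrays were far more scattered than the acute arrays. In DBA/2J mice the intensities were 1074, 1151 and 980.8 with acute morphine, 1525, 910.7 and 1536 with chronic morphine, and 434.6, 597.8 and 1023 with saline. In SWR/J mice they were 1075, 1094 and 1042 with acute morphine, 1523, 1430 and 1521 with chronic morphine, and 743.9, 599.1 and 917.2 with saline. DBA/2J was the only strain with overlap, in both morphine groups, through saline replicate 3 at 1023. SWR/J had none, so 3 strains were without overlap for each treatment. The share of detected probe sets without overlap was not counted. Replicate 3 was the brightest saline array in all 4 strains, and replicate 2 the dimmest chronic array in all 4.

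Relative to saline, 1439163_at differed by 0.90 (SE 0.146, n = 12 arrays each) after acute morphine, a 1.87-fold change, and by 1.25 (SE 0.146) after chronic morphine, a 2.39-fold change. The C57BL/6J differences were 1.59 for acute and 1.75 for chronic morphine, each with an SE of 0.292. In the other strains the acute difference was 0.53 in SWR/J, 0.73 in DBA/2J and 0.76 in 129P3/J. The chronic difference was 1.01 in SWR/J, 1.00 in DBA/2J and 1.26 in 129P3/J. C57BL/6J thus had the lowest saline level and the largest differences from it.

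The dim probe set 1427638_at differed from saline in the same direction by less. Its intensities were 100.8 to 159.9 with a median of 122.7 on the 12 acute arrays, 86.20 to 163.8 with a median of 133.8 on the 12 chronic arrays, and 64.10 to 142.6 with a median of 89.14 on the 12 saline arrays. All 3 treatments overlapped, and 2 acute and 5 chronic arrays stood above the brightest saline array. The difference from saline was 0.39 (SE 0.122) for acute and 0.44 (SE 0.122) for chronic morphine, 1.31-fold and 1.36-fold. Per strain it ran between 0.23 and 0.64 for acute and between 0.33 and 0.55 for chronic morphine, each with an SE of 0.244, and was positive in all 4 strains for both.

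**Figure D2:**
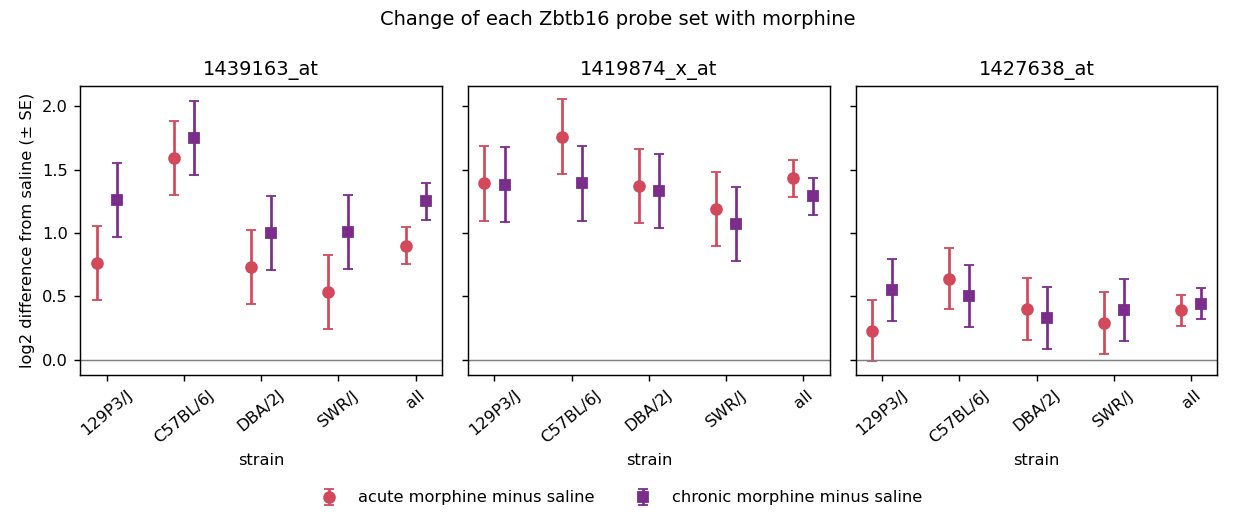
Log2 difference from saline after acute morphine (circles) and chronic morphine (squares) for each Zbtb16 probe set, in each strain and over all strains; bars are standard errors from the fit to all 36 arrays. Over all strains 1439163_at differed by 0.90 and 1.25, 1419874_x_at by 1.43 and 1.29, and 1427638_at by 0.39 and 0.44.

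The probe sets did not give the same size of change. The probe sets were compared within each array. After acute morphine the change of 1419874_x_at exceeded that of 1439163_at by 0.53 (SE 0.15, n = 12 arrays each), with the same sign in all 4 strains, the least in C57BL/6J at 0.17. After chronic morphine the gap was 0.04 (SE 0.15), with no settled sign. The same pair therefore parted between the treatments. Chronic minus acute was 0.35 (SE 0.146) for 1439163_at and -0.14 (SE 0.147) for 1419874_x_at. The difference between these, 1419874_x_at minus 1439163_at, was -0.49 (SE 0.15). It had that sign in all 4 strains, from -0.32 in DBA/2J to -0.60 in SWR/J. These SEs treat arrays as independent. Same-numbered arrays of a treatment deviated together in part, so the 4 strains are not independent results. With treatment and replicate number as a random block, the SEs of chronic minus acute were 0.166 for 1439163_at and 0.182 for 1419874_x_at. That block holds 1 correlation for all detected probe sets, so these SEs may still be too small for Zbtb16. For 1427638_at chronic minus acute was 0.05 (SE 0.122). Its change was smaller than that of 1419874_x_at by 1.03 for acute and 0.85 for chronic morphine (SE 0.197 each), and smaller than that of 1439163_at by 0.51 and 0.81 (SE 0.159 each). These differences share the contrast by which the gene was chosen and were partly known beforehand, so no test is given for them. A permutation of whole replicate sets was also run, but it could not give a p below 0.1 and so cannot decide.

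Array by array, 1439163_at minus 1419874_x_at lay between 0.14 and 0.55 on the 12 acute arrays, with an SD of 0.15. It ran between -0.02 and 1.40 on the 12 chronic arrays and between -0.03 and 1.44 on the 12 saline arrays. Only its movement between arrays can be read, as the probe sets differ in binding. In the chronic groups replicate 2 had the lowest value in every strain, -0.02 in C57BL/6J, 0.23 in DBA/2J, 0.42 in 129P3/J and 0.87 in SWR/J. Averaged over the strains, 1439163_at deviated from its group mean by -0.4 on chronic replicate 2 and by 0.53 on saline replicate 3. How much of the spread in the within-array values lay between replicate sets was not estimated.

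**Figure D3:**
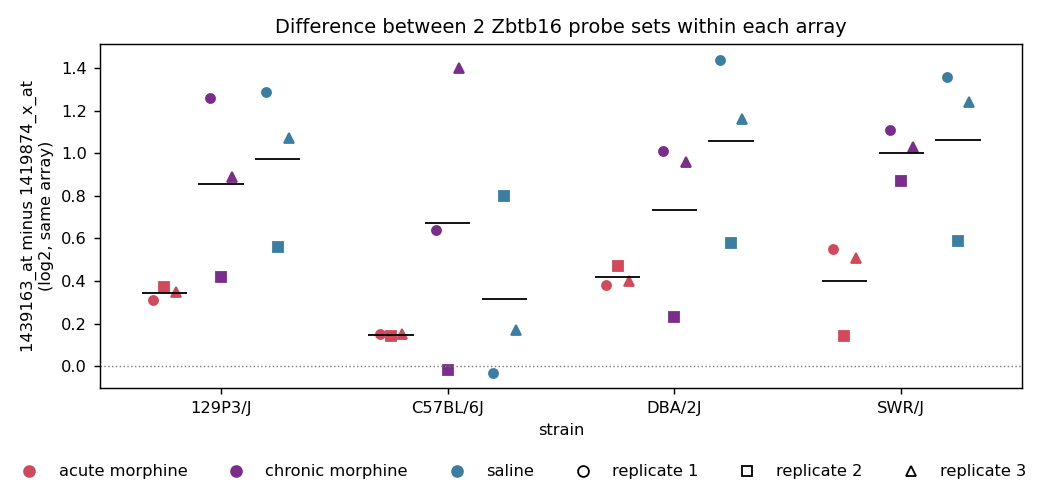
Log2 signal of 1439163_at minus that of 1419874_x_at on the same array, for the 36 arrays by strain and treatment; symbols mark the replicate number and bars the mean of 3 arrays. The 12 acute arrays lie between 0.14 and 0.55, inside the spread of the chronic and saline arrays.

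Over the 36 arrays the log2 values of 1419874_x_at and 1439163_at had a Pearson r of 0.817, and 0.532 as deviations from the group means. By treatment these deviations had an r of 0.763 on the 12 saline arrays, 0.494 on the acute arrays and -0.512 on the chronic arrays. The sign thus differed between saline and chronic pools. For 1427638_at the r over 36 arrays was 0.609 with 1439163_at and 0.541 with 1419874_x_at. On the 12 chronic arrays its deviations followed those of 1439163_at, with an r of 0.771. These are descriptions of few arrays.

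The spread between pools was itself unequal among treatments. For 1439163_at the pooled SD of log2 values within groups was 0.0626 after acute morphine, 0.420 after chronic morphine and 0.503 after saline. For 1419874_x_at it was 0.136 after acute morphine, 0.0863 after chronic morphine and 0.642 after saline. The medians of the detected probe sets were 0.157, 0.186 and 0.187 in the same order, so that the saline arrays of Zbtb16 were more scattered than 96.9% of probe sets for 1439163_at and 98.8% for 1419874_x_at. The acute arrays of 1439163_at were less scattered than all but 2.70%. Limma holds 1 spread for all groups of a probe set, which overstates it for acute groups and understates it for saline groups. The standard errors and limma p-values given here carry that limit.

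Zbtb16 differed among strains by 1 of its 3 probe sets. In limma's moderated F-test of strain over all 3 treatments, at an FDR of 1% over the 27178 detected probe sets, 1439163_at had an adjusted p of 0.00442, 1419874_x_at 0.402 and 1427638_at 0.932. Of the detected probe sets 13.2% passed this test. The strain means of 1439163_at over the treatments were 9.37 in C57BL/6J, 9.91 in DBA/2J, 10.05 in SWR/J and 10.11 in 129P3/J on the log2 scale. C57BL/6J was the lowest strain with 1419874_x_at too, at 8.99 against 9.17 to 9.39 in the others, a difference that did not pass. The call for 1439163_at was lost, at adjusted p of up to 0.0190, when any of 7 of the 9 C57BL/6J arrays was left out (saline replicates 1 and 2, all acute replicates, and chronic replicates 1 and 2).

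Among saline groups 1439163_at was lower in C57BL/6J than in each of the other strains. The difference was -1.28 against SWR/J (SE 0.292, n = 3 arrays each, limma, adjusted p = 0.00652), -1.18 against 129P3/J (adjusted p = 0.0130) and -1.07 against DBA/2J (adjusted p = 0.0259), that is 2.43-fold, 2.27-fold and 2.10-fold lower. Of the detected probe sets, 1.59% were lower and 3.02% higher in C57BL/6J against SWR/J, 1.41% and 3.19% against 129P3/J, and 1.53% and 3.59% against DBA/2J. The C57BL/6J arrays at 234.9 to 438.5 overlapped with the others in DBA/2J saline replicate 1, at 434.6. The residual SD of 1439163_at in the fit was 0.38, while the pooled SD of its saline arrays was 0.503. The SE and adjusted p of these saline comparisons are thus likely too small. All 3 calls also rested on single arrays. Against SWR/J the adjusted p was 0.0595 without C57BL/6J saline replicate 1 and 0.0636 without SWR/J saline replicate 3. Against 129P3/J it was 0.101 and 0.0592 without C57BL/6J saline replicates 1 and 2 and 0.152 without 129P3/J saline replicate 3. Against DBA/2J it was 0.154 and 0.0913 without C57BL/6J saline replicates 1 and 2, 0.215 without DBA/2J saline replicate 3, and 0.192 with array weights.

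No other pair of strains and no other Zbtb16 probe set passed among saline groups. In the other pairs 1.4% of the detected probe sets were higher and 1.48% lower in DBA/2J against 129P3/J, 1.59% and 1.26% in SWR/J against 129P3/J, and 1.24% and 1.49% in DBA/2J against SWR/J. With 1419874_x_at the C57BL/6J difference was -0.53 against SWR/J (SE 0.294, limma, adjusted p = 0.378) and -0.52 against 129P3/J (adjusted p = 0.429). With 1427638_at it was -0.11 against SWR/J (SE 0.244, limma, adjusted p = 0.886). Whether the probe sets disagreed on strain was tested directly. The within-array difference between 1419874_x_at and 1439163_at averaged -0.31 ± 0.43 in C57BL/6J, -1.07 ± 0.41 in SWR/J, -1.06 ± 0.44 in DBA/2J and -0.97 ± 0.37 in 129P3/J saline arrays (SD, n = 3 each, exact permutation p = 0.159). Over the 3 pairs of probe sets the exact permutation p was 0.138 to 0.821, and at least 0.239 after Benjamini-Hochberg adjustment.

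Some sets of cell markers stood apart in C57BL/6J saline too, though no test of strain was run on them. Among them were those of oligodendrocytes, the myelin-forming cells, and of endothelial cells, which line blood vessels. The mean log2 signal of 4 oligodendrocyte genes, Mbp, Mog, Mag and Olig2, was 10.20 to 10.50 on the C57BL/6J saline arrays. It was 9.90 to 10.17 on the other saline arrays. Over the 36 arrays it had an r of -0.802 with 1439163_at, -0.598 with 1419874_x_at and -0.486 with 1427638_at. The mean of 4 endothelial genes was 8.79 to 8.85 on the C57BL/6J saline arrays, against 8.19 to 8.62 on the other saline arrays. Its r with 1439163_at was -0.546 over 36 arrays. The group mean of 5 astrocyte genes was 10.38 in C57BL/6J saline, against 10.21 to 10.26 in the other saline groups, with arrays that overlapped. That of 4 cortical excitatory neuron genes was 8.1, against 8.5 to 8.86, with arrays that overlapped. Other sets did not stand apart: medium spiny neuron genes had 11.18, against 11.14 to 11.26, and choroid plexus genes 8.77, against 8.40 to 8.93. Red blood cell genes had 6.61, against 6.70 to 6.79, with arrays that overlapped. The part of these markers in the Zbtb16 values was not tested. In tissue RNA, fewer cells of a type and less RNA per cell cannot be told apart.

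In order of level, the 4 saline groups of 1439163_at had the lowest means of the 12 groups, at log2 values of 8.25 in C57BL/6J, 9.33 in DBA/2J, 9.44 in 129P3/J and 9.54 in SWR/J. Next above them lay the C57BL/6J acute group at 9.85, a step of 0.31, and the 129P3/J chronic group was the highest at 10.70. The residual SD within groups was 0.38, and the step between neighbours exceeded it only between DBA/2J saline and C57BL/6J saline, at 1.07. For 1419874_x_at, with a residual SD of 0.382, it did so only at the border of the morphine and saline groups, 0.86 between C57BL/6J chronic morphine and SWR/J saline. For 1427638_at no step exceeded 0.14.

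The morphine change of Zbtb16 was not shown to differ among strains. The interaction F-test gave an adjusted p of 0.998 for each of the 3 probe sets, in limma over all detected probe sets, of which 0.0% (0 of 27178) passed and 1398 had an unadjusted p under 0.05. The acute change of 1439163_at in C57BL/6J exceeded the mean change of the other 3 strains by 0.92 (SE 0.337, limma, adjusted p = 0.229), and the chronic change by 0.66 (SE 0.337, adjusted p = 0.555). For 1419874_x_at these differences were 0.44 (SE 0.339, adjusted p = 0.512) and 0.13 (SE 0.339, adjusted p = 0.942). In each of the 8 such comparisons, 4 strains by 2 treatments, 0.0% of the detected probe sets passed, with 263 to 4297 at an unadjusted p under 0.05. The absence of a call at 3 arrays a group does not show that the strains responded alike.

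A pair of further probe sets, 1442025_a_at and 1442026_at, have no gene in the array's annotation, but the study's lists give them an expressed-sequence name that RefSeq (GRCm38.p6) holds as a synonym of Zbtb16. They were added after their values were seen and are no members of the set above. 1442025_a_at followed 1419874_x_at almost exactly, at an r of 0.996 over 36 arrays and a ratio of 1419874_x_at to it of 0.92 to 1.16. Its differences from saline were 1.39 (SE 0.136) for acute and 1.25 (SE 0.136) for chronic morphine. 1442026_at was closer to 1439163_at, at an r of 0.839. Its differences from saline were 0.33 (SE 0.092) for acute and 0.56 (SE 0.092) for chronic morphine, and chronic minus acute was 0.23 (SE 0.092). Chronic minus acute was -0.15 (SE 0.136) for 1442025_a_at, about as large as its SE, as for 1419874_x_at, and in 129P3/J it was 0.05. C57BL/6J saline was the lowest of the 12 groups with all 5 probe sets.

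The genes most like Zbtb16 over the 36 arrays were looked up by Pearson r of log2 values. Those closest to 1419874_x_at were Fkbp5, a co-chaperone of steroid receptors (r = 0.896), Plin4, a lipid droplet protein (r = 0.884), Sult1a1, a sulfotransferase (r = 0.865), Tsc22d3, the glucocorticoid-induced leucine zipper (r = 0.848), and Adcy9, an adenylyl cyclase (r = 0.827). 1439163_at ranked 9th of the 27177 other detected probe sets in this order, and 1427638_at 213th. Closest to 1439163_at were Fkbp5 by another probe set (r = 0.813), Net1, an activator of RhoA (r = 0.807), Nrip1, a nuclear receptor corepressor (r = 0.784), Mertk, a receptor tyrosine kinase (r = 0.769), and Fzd2, a Wnt receptor (r = 0.763). 1419874_x_at ranked 2nd there, after 1442026_at. The list for 1427638_at was another one, led by Rnf2, a polycomb ubiquitin ligase (r = 0.846), 4930500F04Rik (r = 0.838), Cypt3 (r = 0.836), Gm4802 (r = 0.830) and Pnpla2, the adipose triglyceride lipase (r = 0.823). 1439163_at ranked 1378th and 1419874_x_at 2354th for it. The arrays share their treatment and normalization, and saline and morphine arrays stand apart, so r rests in part on which genes differed with morphine.

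**Figure D4:**
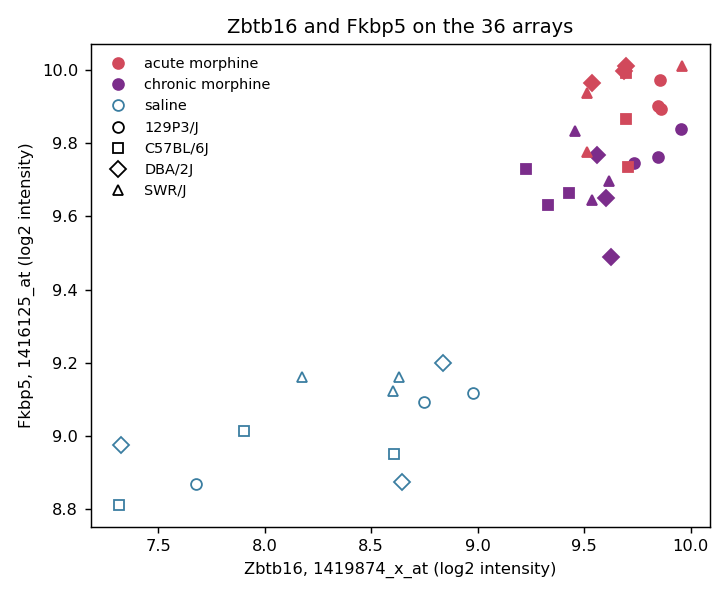
Log2 intensity of Fkbp5 (1416125_at) against that of Zbtb16 (1419874_x_at) on the 36 arrays, with colour for treatment and shape for strain. Both genes separate all morphine arrays from all saline arrays (open symbols), and Fkbp5 ran from 719.1 to 1032 on morphine arrays and from 449.2 to 587.5 on saline arrays. Fkbp5 is shown because it was the gene most like 1419874_x_at.

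The Fkbp5 arrays of the morphine and saline groups did not overlap either, and the share of detected probe sets without overlap was not counted. Fkbp5 was picked as the gene most like 1419874_x_at, which separates the same arrays, so its separation is no independent result. Its intensities were 852.1 to 1032 with a median of 990.2 on acute arrays, 719.1 to 915.3 with a median of 838.6 on chronic arrays, and 449.2 to 587.5 with a median of 531.4 on saline arrays. Among saline arrays its deviations from the group means had an r of 0.584 with 1419874_x_at, 0.552 with 1439163_at and -0.304 with 1427638_at, over 12 arrays. In the other treatments these r were not steady. With 1419874_x_at the r was 0.492 on acute and -0.258 on chronic arrays, with 1439163_at 0.238 and 0.126, and with 1427638_at -0.561 and -0.0522. Over the 15 genes listed as glucocorticoid-induced, the r among saline arrays with 1419874_x_at was positive for 12 and negative for 3, from -0.807 to 0.902 with a median of 0.200. With 1439163_at it was positive for 11 and negative for 4, with a median of 0.256.

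Of 15 genes listed as glucocorticoid-induced, all detected, 11 rose and 0 fell after acute morphine, and 5 rose and 0 fell after chronic morphine (limma, adjusted p under 0.05 over all detected probe sets). With treatment and replicate number as a random block the counts that rose were 6 and 3, and 8 rose after chronic morphine with array weights. Among all 13214 detected genes 2.92% rose after acute and 1.35% after chronic morphine. The list's median difference was 0.23 for acute and 0.13 for chronic morphine, beside 0.02 and -0.02 over all genes. The 4 largest were Sult1a1 (0.99 for acute, 0.76 for chronic), Fkbp5 (0.89 and 0.68), Tsc22d3 (0.85 and 0.55) and Pdk4, a kinase that inhibits pyruvate dehydrogenase (0.81 and 0.32), all called in both. Of the Zbtb16 probe sets, 1419874_x_at had 1.43 and 1.29, 1439163_at had 0.90 and 1.25, and 1427638_at had 0.39 and 0.44. The list was written with results of these arrays known and is no independent evidence.

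Neither receptor that glucocorticoids act on rose. Nr3c1, the glucocorticoid receptor, fell by 0.23 after chronic morphine (SE 0.064, limma, adjusted p = 0.0384) and had -0.20 after acute morphine (adjusted p = 0.0649). Nr3c2, the mineralocorticoid receptor, had -0.15 and -0.17, neither past the threshold. The Nr3c1 call ended when any of 11 of the 36 arrays was left out, and with the random block. Of all genes 4.4% fell after chronic morphine.

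Few other genes of the BTB zinc finger family passed the test, as few of all genes did. Of 45 listed, 40 were detected, and after acute morphine 0 rose and 0 fell, while after chronic morphine 1 rose and 1 fell. Zbtb38 rose by 0.20 (SE 0.051, limma, adjusted p = 0.0244) and Zbtb14 fell by 0.21 (SE 0.057, adjusted p = 0.0348) after chronic morphine. With single arrays left out each count ran from 0 to 2, at 0 for 3 of the 36 arrays for genes that rose and for 10 for genes that fell, and both were 0 with the random block. The family's differences ran from -0.19 to 0.23 for acute and from -0.21 to 0.26 for chronic morphine, with medians of 0.04 and 0.03. The threshold of 0.05 was passed by 0 family members for acute morphine, beside 2.92% of all genes that rose and 1.74% that fell. For chronic morphine 1.35% of all genes rose and 4.4% fell, beside 1 and 1 of the 40 family members. Whether the family differed from all genes was not tested.

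Corepressors and partners of PLZF were listed as well. Of 15 listed, 11 were detected, and 1 passed: Hdac1, a histone deacetylase, fell by 0.22 after chronic morphine (SE 0.061, limma, adjusted p = 0.0333). That call ended when any of 12 of the 36 arrays was left out, and with the random block. The median difference was 0.04 for acute and 0.01 for chronic morphine. After chronic morphine 4.4% of all genes fell.

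Zbtb16 lies on chromosome 9 in GRCm38.p6. The nearest genes with a detected probe set are Rbm7 and Rexo2 on one side and Htr3a and Htr3b, a pair of serotonin receptor subunits, on the other. Their differences were 0.11 for Rbm7, -0.08 for Rexo2, 0.14 for Htr3a and 0.07 for Htr3b after acute morphine, and 0.02, -0.14, 0.15 and 0.06 after chronic morphine. None of the 4 passed in limma at an adjusted p under 0.05, the lowest being 0.111 for Rexo2 after chronic morphine.

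Markers of the labelled tissue were present. Of 7 listed genes of medium spiny neurons, the principal cells of the striatum, 6 were detected, from Drd2 at a mean log2 signal of 10.11 to Penk at 12.17, and their mean lay at 10.87 to 11.24 on acute, 10.93 to 11.18 on chronic and 11.06 to 11.30 on saline arrays. Drd2 and Rgs9 fell after chronic morphine. Cortical excitatory neuron genes, 4 of 5 detected, had a mean of 8.23 to 9.25 on acute, 8.43 to 9.78 on chronic and 7.58 to 9.29 on saline arrays, and an r of 0.641 with 1439163_at and 0.636 with 1419874_x_at over 36 arrays. None of those 4 passed for either treatment, at a median difference of 0.28 for acute and 0.71 for chronic morphine. Their r with Zbtb16 spans the treatments too. After chronic morphine Slc17a7 had 0.77, Neurod6 0.82 and Tbr1 0.65, at adjusted p of 0.0665, 0.0543 and 0.0524 in limma. The remaining gene, Nrgn, at a mean log2 signal of 11.22, had 0.07 (limma, adjusted p = 0.543), and -0.15 after acute morphine. Oligodendrocyte genes, 4 of 5 detected, had a mean of 9.62 to 10.03 on acute, 9.52 to 10.13 on chronic and 9.90 to 10.50 on saline arrays, with 1 fallen after acute and 2 after chronic morphine, Olig2 by 0.46 and 0.69. Of 5 astrocyte genes 2 fell after chronic morphine, and of 4 detected endothelial genes 2 fell after acute and 1 after chronic morphine, beside 1.74% and 4.4% of all genes that fell. Of 3 detected choroid plexus and 2 detected red blood cell genes 0 passed. The part of these markers in the Zbtb16 values was not tested.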

How the data were processed

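RNA from striatum was hybridized to 36 Affymetrix mouse arrays, each with RNA pooled from 3 mice. The deposited values are linear model-based expression intensities (perfect match and mismatch probes) that the authors normalized between arrays. That this was quantile normalization is inferred from their methods, and a shared floor of 6.69 held 3.67 to 4.53% of an array's values. Here intensities were taken to log2 with no pseudocount. Probe sets with an intensity above 100 on at least 9 arrays were tested, 27178 in all. A model of 12 group means with 24 residual degrees of freedom was fitted with limma 3.58.1 in R 4.3.3, with Benjamini-Hochberg adjustment at 1% for F-tests and 5% for contrasts. Scripts were tested on simulated data. List genes were measured by the detected probe set of highest mean signal.

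Zbtb16 and the gene lists were chosen with earlier results of these data known. For that reason no p is given for the morphine changes, and the permutation test planned for probe set differences in morphine change was run but its p is left out. The genes named are the 5 most like each probe set, up to 4 members of each list that passed, by size, and the nearest measured genes on the chromosome. Marker genes are named beside the results they touch.

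Alternatives were no filter, a filter on mean signal, a pseudocount of 16, quantile normalization, replicate blocks, array weights, the mean of all probe sets of a gene, and leaving out each array. The labels call the arrays biological replicates, so p-values rest on how pools of mice varied.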

Additional observations from a re-analysis of the deposited data

How the results depend on the processing

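Over all strains, the morphine differences of the 3 Zbtb16 probe sets and the differences between them kept their sign under every alternative run, with 1 exception. The chronic change of 1419874_x_at minus that of 1439163_at, 0.04, ran from -0.05 to 0.13 and turned negative in 5 of 38 alternatives. No interaction or strain-specific response of Zbtb16 passed under any alternative. The strain F-test of 1439163_at had an adjusted p of 0.000801 to 0.0190 when single arrays were left out. The C57BL/6J saline comparisons ran from 0.0044 to 0.152 against 129P3/J, from 0.00792 to 0.215 against DBA/2J and from 0.00234 to 0.0636 against SWR/J. With array weights the DBA/2J comparison had 0.192, and the DBA/2J differences of 1419874_x_at were 1.82 for acute and 1.84 for chronic morphine. Of the glucocorticoid-induced genes, 8 rose after chronic morphine with array weights, and 3 to 6 when single arrays were left out (3 without DBA/2J saline replicate 1 or DBA/2J chronic replicate 1). The causes were not tested.

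Same-numbered arrays within a treatment deviated together in part (mean r 0.264 over 54 pairs, from -0.473 to 0.663, 79.6% over 0.1), which does not make them pairs. With treatment and number as a random replicate block, the strain F-test of 1439163_at had an adjusted p of 9.06e-05, and 6 glucocorticoid-induced genes rose after acute and 3 after chronic morphine. With the number as a fixed replicate block it had 0.000693. With the random block the SE of the acute and chronic differences was 0.166 for 1439163_at, 0.182 for 1419874_x_at and 0.159 for 1427638_at. Without it these were 0.146, 0.147 and 0.122. The block used 1 correlation for all detected probe sets, 0.242. Averaged over strains, 1439163_at deviated by 0.53 on saline replicate 3 and by -0.4 on chronic replicate 2. The SEs with the block may therefore still be too small for Zbtb16. Neither block changed another call for Zbtb16.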
